A study of Homo sapiens with 6 samples.

Results

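The WNT genes examined were 10 genes chosen by symbol. They were the R-spondin receptor gene *LGR5*, the scaffold gene *AXIN2*, and the transcription factor genes *LEF1*, *TCF7*, *TCF7L1* and *TCF7L2*. The others were the secreted Dickkopf genes *DKK1* and *DKK3* and the ubiquitin ligase genes *RNF43* and *ZNRF3*. By gene identifier, all 10 were present among 60651 genes. Their counts came from 6 total RNA libraries of a human neuroblastoma cell line, 3 labelled EtOH (ethanol, the vehicle) and 3 labelled Tet (tetracycline, 5 days). The titles of all 6 named IMR-5/75, a *MYCN*-amplified line that the study used with an inducible shRNA against *MYCN*. The growth text of the same libraries instead gave SK-N-SH cells with a *MYCN* expression system under a tetracycline repressor, kept as single clones in G418 and blasticidin, and a tag named the treatment a knockdown. Which of these systems the cells carried, and whether the libraries came from 1 clone, was not settled by the labels, so the groups are called EtOH and Tet.

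WNT proteins are secreted signals that bind Frizzled receptors together with LRP co-receptors. Binding keeps β-catenin from the destruction complex, in which AXIN and APC proteins hold it for phosphorylation and degradation, and β-catenin then enters the nucleus and binds TCF/LEF transcription factors at target genes. *AXIN2*, *LGR5*, *RNF43* and *ZNRF3* are themselves well-known targets: AXIN2 rebuilds the destruction complex, RNF43 and ZNRF3 remove Frizzled receptors from the cell surface, and LGR receptors with bound R-spondin take those ligases away. The pathway acts in the neural crest, from which neuroblastoma arises.

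*MYCN*, the gene that the system was built to regulate, had means of 190 ± 57.4 CPM under EtOH and 181 ± 30.6 CPM under Tet (SD, n = 3 each; CPM are counts scaled to a common library total after TMM normalisation, and triplets of values are in the order of replicates 1, 2 and 3). Its log2 fold change was -0.072 (95% interval -0.60 to 0.46, edgeR adjusted p = 0.956), so directions below compare the labels only. The libraries held between 27933378 and 40498065 counts, at which 3 counts are 0.0741 to 0.107 CPM. The first principal component of log2 CPM (44.7% of the variance) gave EtOH replicate 2 and Tet replicate 2 scores of 84.2 and 47.3. The other 4 libraries were at -55.0 to -1.81, with Tet replicate 1 at -1.81. The second component (25.7%) separated the labels, at -39.1 to -34.7 in EtOH and 26.4 to 48.1 in Tet. Noradrenergic neuroblastoma markers were present, with a sum of 622 to 837 CPM over 10 genes, but *TH* and *DBH*, the catecholamine enzyme genes, had totals of 1 and 35.5 counts over all 6 libraries. Fibroblast markers summed to 66.3 to 115 CPM over 8 genes, mostly *PDGFRA*. Sums were 2.23 to 6.04 CPM over 6 Schwann cell markers and 0.805 to 1.805 CPM over 6 macrophage and T cell markers. Of these 3 lists, only *S100B*, *COL1A2*, *CD3D* and *CD3E* had no count.

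Promoter windows from RefSeq (GRCh38.p14, 250 bases before to 50 after an annotated start) matched 6 of the 10 genes, with 10 windows in all: *LEF1*, *TCF7*, *TCF7L1*, *TCF7L2*, *DKK1* and *RNF43*. They were searched on both strands for the TCF/LEF letters CTTTGAA or CTTTGAT or CTTTGTA or CTTTGTT, and for the E-box CACGTG, the letters MYC proteins bind. None of these forms contains another. No member window held the E-box, against 7.26% of 35116 windows in the table. The TCF/LEF letters were in 3 of the 10 windows, against 13.8% of all windows. Those 3 are shown because they are the windows in which members that encode or oppose the pathway's own factors carry its motif, which is given in capitals. The *DKK1* window (chr10:52314031-52314330, plus strand) holds it 2 times, 95 and 76 bases before the start. The *TCF7L2* window (chr10:113126383-113126682, plus strand) belongs to an internal start and holds it 1 time, 133 bases before that start. The *TCF7* window (chr5:134123368-134123667, plus strand) also belongs to an internal start and holds it 1 time on the reverse strand, 50 bases before that start.
DKK1: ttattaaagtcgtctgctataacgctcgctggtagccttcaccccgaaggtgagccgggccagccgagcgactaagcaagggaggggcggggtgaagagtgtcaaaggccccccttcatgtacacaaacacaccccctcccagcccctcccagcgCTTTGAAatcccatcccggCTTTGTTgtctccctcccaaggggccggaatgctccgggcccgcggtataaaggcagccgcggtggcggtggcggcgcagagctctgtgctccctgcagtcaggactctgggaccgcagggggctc
TCF7L2: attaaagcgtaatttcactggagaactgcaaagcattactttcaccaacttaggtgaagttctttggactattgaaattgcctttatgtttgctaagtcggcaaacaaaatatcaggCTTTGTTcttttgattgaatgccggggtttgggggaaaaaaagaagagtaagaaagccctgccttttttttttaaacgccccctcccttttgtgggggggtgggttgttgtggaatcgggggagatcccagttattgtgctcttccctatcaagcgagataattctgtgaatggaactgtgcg
TCF7: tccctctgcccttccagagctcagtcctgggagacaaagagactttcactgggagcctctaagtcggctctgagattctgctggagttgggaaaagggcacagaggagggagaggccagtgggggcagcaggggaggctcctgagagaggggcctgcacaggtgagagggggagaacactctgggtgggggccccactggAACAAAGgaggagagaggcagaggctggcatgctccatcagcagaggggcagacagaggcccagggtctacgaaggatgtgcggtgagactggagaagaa

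No difference between the labels was detected in any of the 10 genes. *LEF1* and *RNF43* were too low to be tested. Of the other 8, 0 had an edgeR adjusted p-value under 0.05, and 0 were called by DESeq2 or limma-voom. By edgeR without the replicate number in the model, 0 had an unadjusted p under 0.05. With the number added, 1 of the 8 did, as did 3716 of all 22443 genes. It was *ZNRF3* (edgeR unadjusted p = 0.0234, adjusted p = 0.212). The shares that follow are from the fit without the number. Over all 22443 genes tested, 0.236% were called (0.147% higher and 0.0891% lower in Tet), and 10.8% had an unadjusted p under 0.05 (5.83% higher, 4.94% lower). The median log2 fold change of the 8 genes was -0.039, beside -0.0061 over all genes tested. In 1 of the 8, *TCF7L2*, the 2 labels did not overlap, where 17.5% of all genes tested had labels that did not overlap (9.20% higher and 8.28% lower in Tet).

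By level per transcript length (TPM, mean over 6 libraries), *ZNRF3* (12.3 TPM) and *TCF7L2* (11.1 TPM) were the most abundant, and their ranges over the libraries overlapped. *DKK3* followed at 6.54 TPM, with a range that met neither neighbour. *AXIN2* (3.08 TPM), *LGR5* (2.998 TPM), *TCF7* (1.69 TPM) and *TCF7L1* (1.47 TPM) formed a group in which each range overlapped the next. *DKK1* (0.816 TPM) lay below them and above *LEF1* (0.0504 TPM) and *RNF43* (0.0158 TPM), whose ranges overlapped. The order separates a TCF gene that was well expressed, *TCF7L2*, from *TCF7* and *TCF7L1* at lower levels and from *LEF1* near 0.

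**Figure D1:**
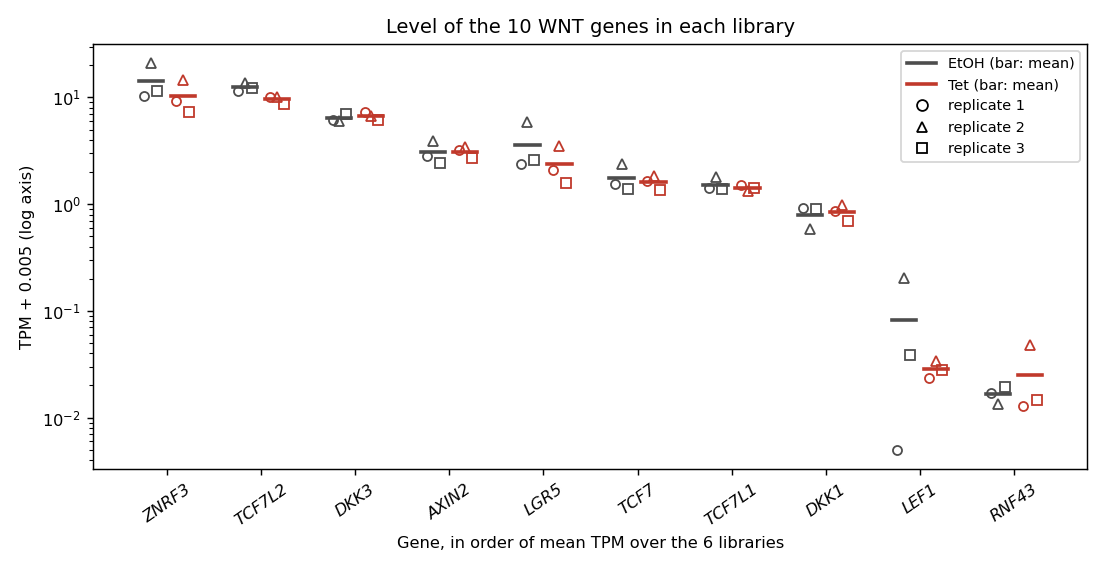
Level of each of the 10 genes in each library, as TPM plus 0.005 on a log axis, with EtOH in grey and Tet in red, symbols by replicate number and bars at the mean of 3 libraries. *TCF7L2* is the one gene among those tested whose grey and red points do not overlap, and *LEF1* and *RNF43* sit far below the other 8.

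The receptor-level genes come first. *LGR5* (ENSG00000139292.13, chromosome 12, 71439798 to 71586310, plus strand) encodes a receptor for R-spondins and marks stem cells in several tissues. It was measured at 4.63, 10.3 and 4.96 CPM under EtOH and 3.86, 6.77 and 3.35 CPM under Tet. Within both labels replicate 2 stood highest, and the ranges overlapped. The means were 6.64 ± 3.19 and 4.66 ± 1.85 CPM (SD, n = 3 each), with a log2 fold change of -0.51 (SE 0.40, 95% interval -1.41 to 0.40, edgeR adjusted p = 0.726). The difference was smaller than the spread within the EtOH label. The log2 fold change was -0.033 without EtOH replicate 2 and -0.88 without Tet replicate 2.

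*ZNRF3* (ENSG00000183579.16, chromosome 22, 28883572 to 29057488, plus strand) encodes a membrane ubiquitin ligase that clears Frizzled receptors. It was at 26.7, 49.4 and 29.5 CPM under EtOH and 22.8, 37.3 and 21.1 CPM under Tet. As with *LGR5*, replicate 2 stood above both others in each label. The log2 fold change was -0.38 (SE 0.30, 95% interval -1.06 to 0.30, edgeR adjusted p = 0.731). It was -0.046 without EtOH replicate 2 and -0.68 without Tet replicate 2. *RNF43* (ENSG00000108375.13, chromosome 17, 58353676 to 58417595, minus strand), the paralogue of *ZNRF3* with the same role, had estimated counts of 1, 0.5 and 1 in the EtOH libraries and 0.5, 3.5 and 1 in the Tet libraries. Of its exon bases, 69.05% also lie in another gene, mainly ENSG00000285897 on the same strand, which had 1084 counts in all. Read pairs in such bases were divided evenly, so a pair in bases shared with that gene would also have left a share with *RNF43*, and at most 3.5 counts were seen in a library. *ZNRF3* was therefore the ligase gene of the pair that was measurably expressed at this depth.

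*LGR5* and *ZNRF3* varied together over the libraries, and more between replicates than between labels. EtOH replicate 2 was 2.15 times the mean of EtOH replicates 1 and 3 for *LGR5* and 1.76 times for *ZNRF3*, and Tet replicate 2 was 1.88 and 1.70 times the mean of Tet replicates 1 and 3. *TCF7* (1.48 and 1.17 times) and *AXIN2* (1.37 and 1.11 times) leaned the same way by less. *DKK1* (0.58 and 1.21 times) and *DKK3* (0.84 and 0.96 times) did not, and *TCF7L2* was nearly level (1.04 and 1.05 times). The same replicates carried the highest summed level of 10 mesenchymal-state markers, 591 CPM in EtOH replicate 2 and 498 CPM in Tet replicate 2 against 334 to 359 CPM in the other 4 libraries. The sum was mostly *VIM*, *PRRX1*, *FN1* and *TWIST1*, and did not stand for all 10 markers: *FOSL1* had 1 count in all, and *CD44* and *AXL* were lowest of the EtOH libraries in replicate 2. Replicates 2 also had the highest proliferation score of their label (5.90 in EtOH, 5.44 in Tet, median log2(TPM + 1) of 26 genes). The score did not stand for all 26 genes. *MKI67* (366, 231 and 287 CPM), *CCNB2* and *PLK1* were lowest of the EtOH libraries in replicate 2. Under Tet, *MKI67* was at 199, 214 and 243 CPM. The part of these differences in the *LGR5* and *ZNRF3* levels was not tested. In bulk RNA, fewer cells of a type and less RNA per cell cannot be told apart.

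**Figure D2:**
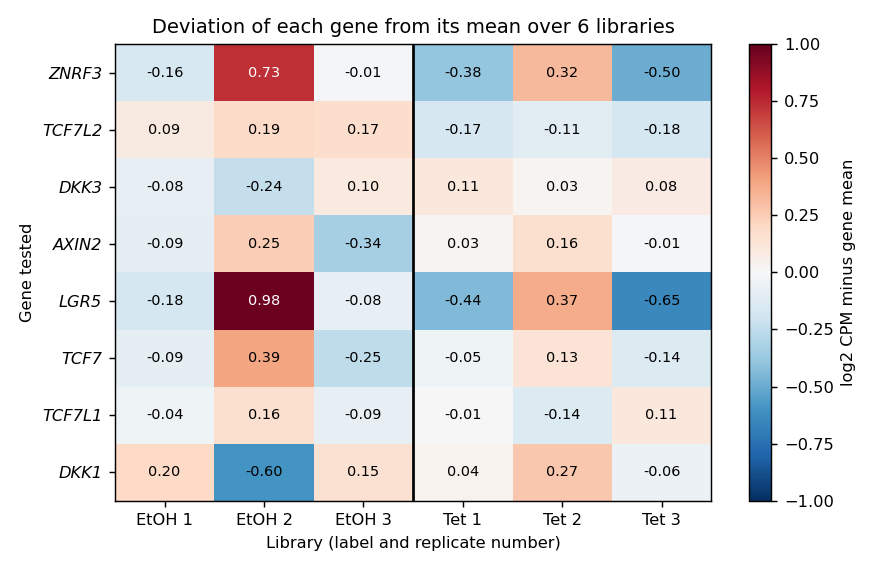
Deviation of log2 CPM from the mean over 6 libraries for the 8 genes tested (rows, by mean TPM) in each library (columns, EtOH left and Tet right of the line). *LGR5* (0.98) and *ZNRF3* (0.73) are highest in EtOH replicate 2, whereas *TCF7L2* is above its mean in all 3 EtOH libraries and below it in all 3 Tet libraries.

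*AXIN2* (ENSG00000168646.13, chromosome 17, 65528563 to 65561648, minus strand) is the target most often used as a readout of β-catenin activity. It was measured at 5.50, 6.93 and 4.63 CPM under EtOH and 5.96, 6.52 and 5.79 CPM under Tet. All 3 Tet values lay inside the range of the EtOH values. The log2 fold change was 0.10 (SE 0.24, 95% interval -0.44 to 0.64, edgeR adjusted p = 0.937), and it turned to -0.053 without EtOH replicate 3. Of its exon bases, 25.18% also lie in ENSG00000266076 on the same strand, whose log2 fold change was -0.14 (edgeR adjusted p = 0.933).

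Among the 4 TCF/LEF genes, which encode the DNA-binding partners of β-catenin, *TCF7L2* was the gene closest to a difference. *TCF7L2* (ENSG00000148737.17, chromosome 10, 112950247 to 113167678, plus strand) was at 28.8, 30.9 and 30.6 CPM under EtOH and 24.1, 25.2 and 24.0 CPM under Tet. Every Tet library was below every EtOH library, and both labels were tight. The means were 30.1 ± 1.16 and 24.4 ± 0.663 CPM (SD, n = 3 each), a ratio of 0.811. The log2 fold change of -0.30 (SE 0.15, 95% interval -0.63 to 0.031) did not pass the threshold (edgeR unadjusted p = 0.0699, adjusted p = 0.518). It stayed between -0.35 and -0.28 over 14 alternatives, none of which brought the adjusted p below 0.311.

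*TCF7* (ENSG00000081059.20, chromosome 5, 134114681 to 134151865, plus strand) was at 5.78, 8.08 and 5.16 CPM under EtOH and 5.96, 6.74 and 5.59 CPM under Tet, which overlapped (log2 fold change -0.055, SE 0.25, 95% interval -0.62 to 0.51, edgeR adjusted p = 0.972). *TCF7L1* (ENSG00000152284.5, chromosome 2, 85133392 to 85310387, plus strand), which acts largely as a repressor, was at 2.32, 2.67 and 2.25 CPM under EtOH and 2.38, 2.17 and 2.57 CPM under Tet (log2 fold change -0.023, SE 0.27, 95% interval -0.63 to 0.58, edgeR adjusted p = 0.989). Antisense *SKP1* holds 2.08% of the exon bases of *TCF7* and was at 268 ± 83.8 and 305 ± 4.94 CPM, so reads of *SKP1* may add to the value of *TCF7*. The sign of *TCF7* and *TCF7L1* changed with the library left out, as *TCF7* was at 0.16 and *TCF7L1* at 0.061 without EtOH replicate 2. *LEF1* (ENSG00000138795.10, chromosome 4, 108047545 to 108168956, minus strand) had estimated counts of 0, 10 and 2 in the EtOH libraries and 1, 2 and 2 in the Tet libraries, so 10 of its 17 counts came from EtOH replicate 2, and it did not pass the filter on low counts.

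Neither Dickkopf gene passed the threshold. *DKK1* (ENSG00000107984.10, chromosome 10, 52314281 to 52318042, plus strand), whose protein blocks LRP co-receptors, was low, at 0.753, 0.433 and 0.727 CPM under EtOH and 0.674, 0.790 and 0.629 CPM under Tet. These values rest on 12 to 28 counts a library. The log2 fold change was 0.12 (SE 0.41, 95% interval -0.82 to 1.06, edgeR adjusted p = 0.960) and changed sign to -0.080 without EtOH replicate 2, so neither direction was shown. The antisense gene *PRKG1-AS1*, which holds 10.22% of the exon bases of *DKK1*, was at 1.44 ± 0.437 and 0.687 ± 0.0892 CPM (log2 fold change -1.06, edgeR adjusted p = 0.365).

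*DKK3* (ENSG00000050165.18, chromosome 11, 11956207 to 12009769, minus strand) encodes the divergent member of the Dickkopf family. It was at 27.1, 24.3 and 30.7 CPM under EtOH and 30.9, 29.3 and 30.3 CPM under Tet. The labels overlapped through EtOH replicate 3, and the log2 fold change was 0.14 (SE 0.16, 95% interval -0.22 to 0.50, edgeR adjusted p = 0.830). Counting did not use the strand, and 47.51% of the exon bases of *DKK3* lie in the antisense gene *USP47*, which was at 222 ± 15.7 and 260 ± 21.6 CPM. Reads of *USP47* in those bases would add to the value of *DKK3*, whose level and order among the 10 genes are therefore uncertain.

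The other genes of the pathway were taken from 7 lists by role, 102 genes with the 10 included, of which 65 were tested and 12 had no count in any library. Of the 65, 0 were called by edgeR, and 6 had an unadjusted p under 0.05 (4 higher, 2 lower), where the share over all genes tested was 10.8%. DESeq2 called 2 (*CCND1* and *FRZB*, both higher in Tet) and limma-voom 0. The labels did not overlap for 14 of the 65 (4 higher, 10 lower), beside 17.5% of all genes tested (9.20% higher, 8.28% lower). The median log2 fold change was -0.065.

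Among ligands and secretion genes, 7 of 21 were tested, 0 passed the threshold, and the median log2 fold change was -0.28. *WNT16* was at 0.873 ± 0.563 CPM in EtOH and 0.232 ± 0.129 CPM in Tet (log2 fold change -1.89, edgeR adjusted p = 0.343), without overlap, and its log2 fold change was -1.24 without EtOH replicate 2. *WNT8B* was at 1.43 ± 0.654 and 0.692 ± 0.318 CPM (log2 fold change -1.06, edgeR adjusted p = 0.514), with overlap. Both ligand genes were low, with levels that rest on few reads. By level per length, *WNT2B* (7.01 TPM) and *WNT5A* (6.11 TPM), named after their values were seen, were the most abundant WNT genes, and their order is uncertain because 21.54% of the exon bases of *WNT2B* lie in antisense *ST7L*.

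Of 16 receptor and co-receptor genes, 13 were tested, 0 passed the threshold, and 10 had a log2 fold change below 0, with a median of -0.35. The labels did not overlap, with Tet lower, for 4 of the 13, all Frizzled genes, which encode the WNT receptors, beside 8.28% of all genes tested, and none had an adjusted p under 0.456. *FZD5* was at 8.75 ± 2.33 and 5.86 ± 0.334 CPM (log2 fold change -0.58, edgeR adjusted p = 0.456), and *FZD4*, which shares 18.94% of its exon bases with antisense *PRSS23*, at 8.80 ± 1.47 and 6.24 ± 0.745 CPM (-0.50, edgeR adjusted p = 0.481). *FZD1* (log2 fold change -0.35) and *FZD6* (-0.45), named after their values were seen, had edgeR adjusted p-values of 0.556 and 0.548. In the other Frizzled genes tested the labels overlapped. These were *FZD2* (log2 fold change 0.27), *FZD3* (-0.074) and *FZD7* (-0.62), and *FZD3* was the most abundant Frizzled gene (39.8 TPM). In the R-spondin list, 4 of 9 genes were tested and all 4 had a log2 fold change below 0 (median -0.43, smallest edgeR adjusted p = 0.726); *LGR5* and *ZNRF3* are among them.

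Of 15 genes on the list of secreted inhibitors, 7 were tested and 0 passed the threshold. The list also holds *KREMEN1* and *KREMEN2*, which encode Dickkopf-binding receptors. Log2 fold changes were above 0 for 4 and below 0 for 3, *DKK2* (-0.72) and *SFRP4* (-0.53) among the latter, with a median of 0.12. *FRZB*, which encodes a soluble Frizzled-related protein that binds WNT ligands, was at 8.93, 16.2 and 9.22 CPM under EtOH and 27.4, 29.4 and 21.2 CPM under Tet. Every Tet library was above every EtOH library. The log2 fold change reached 1.18 ± 0.27 (SE), with an edgeR adjusted p of 0.143. The adjusted p was 0.0151 under DESeq2, 0.121 under limma-voom and 0.00867 by edgeR with the replicate number added to the model. By edgeR it was 0.00922 without EtOH replicate 2 and 0.264 to 0.589 without any other single library. *KREMEN1*, whose protein binds Dickkopf proteins, was at 11.1 ± 3.91 and 17.2 ± 2.98 CPM (log2 fold change 0.63, edgeR adjusted p = 0.477), and *SFRP1*, a relative of *FRZB*, at 17.1 ± 1.39 and 12.7 ± 2.74 CPM (-0.43, edgeR adjusted p = 0.519), so the Frizzled-related genes had fold changes of opposite sign.

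All 15 genes of cytoplasmic signalling were tested and 0 passed the threshold (median log2 fold change 0.12). *CTNNB1*, which encodes β-catenin, was at 296 ± 59.8 and 393 ± 83.3 CPM (log2 fold change 0.41, edgeR adjusted p = 0.542). The tankyrase gene *TNKS2* (99.5 TPM) and the kinase gene *CSNK1A1* (77.1 TPM) were, with *CTNNB1* (80.1 TPM), the most abundant of this list, with log2 fold changes of -0.065 and 0.19 for the first 2. *CSNK1A1* shares 49.31% of its exon bases with another gene on its strand. *APC2* (log2 fold change 1.77, edgeR adjusted p = 0.426) was set by Tet replicate 3 (1.42, 0.790 and 5.64 CPM under Tet) and was at 0.52 without it. Of 14 nuclear factor genes, 12 were tested and 0 passed the threshold (median 0.025). The co-repressor gene *TLE4* (79.1 TPM) was at 204 ± 39.1 and 271 ± 53.3 CPM (log2 fold change 0.41, edgeR adjusted p = 0.523).

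Of 20 known targets, 12 were tested and 0 passed the threshold, with a median log2 fold change of -0.0033 and 6 genes on each side of 0. The labels did not overlap for 2 of the 12 with Tet higher and 2 with Tet lower. Over all genes tested the shares were 9.20% and 8.28%. *CCND1*, which encodes cyclin D1 and is also driven by many signals other than WNT, was at 151, 295 and 158 CPM under EtOH and 533, 688 and 421 CPM under Tet. Every Tet library was above every EtOH library. Its log2 fold change, 1.44 ± 0.30 (SE), fell short of the threshold with an edgeR adjusted p of 0.110. The adjusted p was 0.00229 under DESeq2, 0.0899 under limma-voom and 0.000875 by edgeR with the replicate number added to the model. By edgeR it was 0.00654 without EtOH replicate 2 and 0.237 to 0.499 without any other single library. *SNAI2*, a neural crest transcription factor gene, was at 1.62, 4.87 and 0.826 CPM in EtOH and 4.96, 16.3 and 4.78 CPM in Tet (replicates 1, 2 and 3; log2 fold change 1.84, edgeR adjusted p = 0.389), and the labels overlapped. Its log2 fold change ran from 1.0 without Tet replicate 2 (adjusted p = 0.744) to 2.82 without EtOH replicate 2 (adjusted p = 0.0451), both by edgeR. With the replicate number added to the model it was 1.93 (edgeR adjusted p = 0.00453). *TNFRSF19* was low, at 0.350 ± 0.110 and 0.667 ± 0.132 CPM (log2 fold change 0.93, edgeR adjusted p = 0.524), without overlap. The feedback target *NKD1*, named after its values were seen, was at 7.20 ± 0.202 and 5.22 ± 1.15 CPM (log2 fold change -0.46, edgeR adjusted p = 0.543), without overlap. The members on the target list that were tested (*LGR5*, *ZNRF3*, *AXIN2*, *TCF7* and *DKK1*) had log2 fold changes between -0.51 and 0.12.

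**Figure D3:**
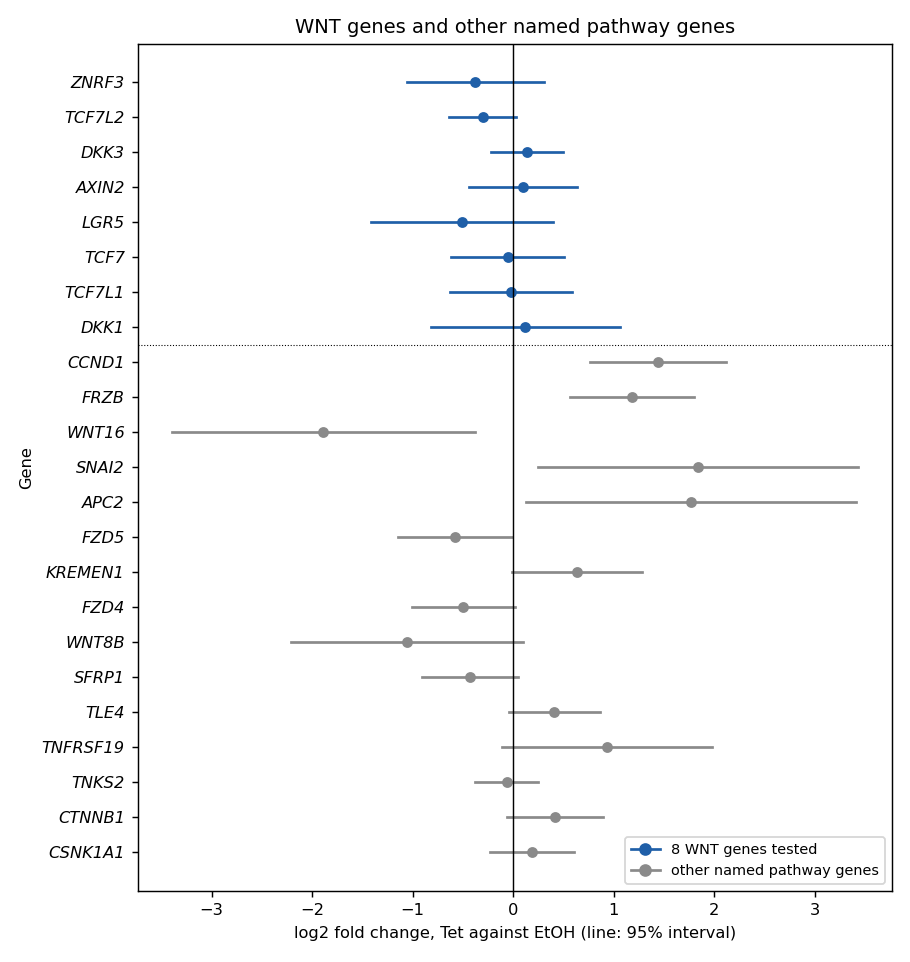
Log2 fold change of Tet against EtOH (x axis) with its 95% interval for the 8 WNT genes tested (blue) and for other pathway genes named by rule (grey). All 8 blue intervals include 0, and the interval of *TCF7L2* (-0.63 to 0.031) reaches it most narrowly.

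**Figure D4:**
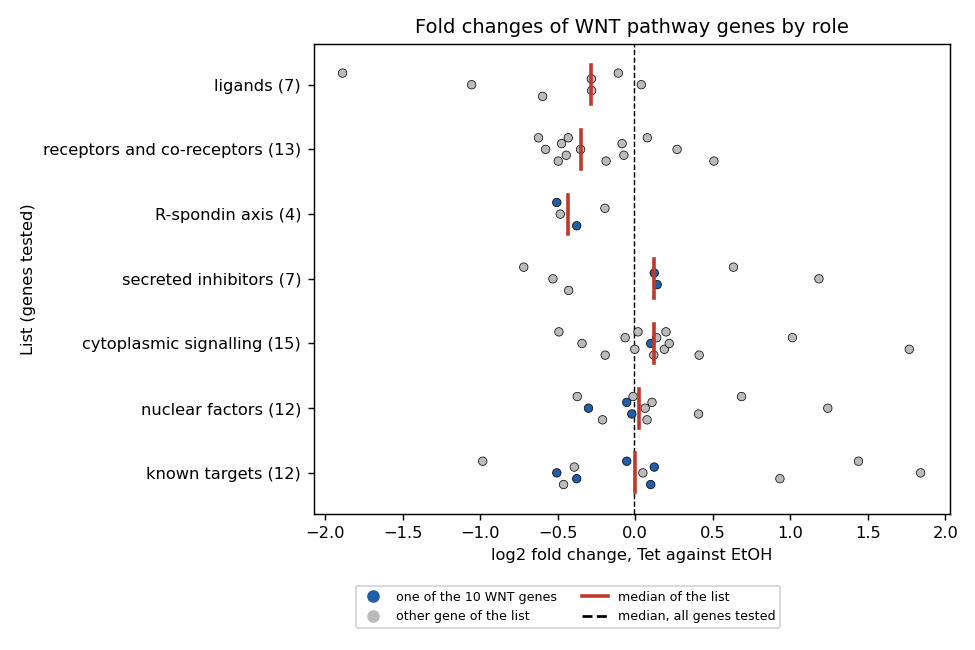
Log2 fold change of each tested gene of the 7 WNT lists (points; blue for members of the 10 genes), the median of each list (red line) and the median of all genes tested (dashed line). Medians range from -0.43 for the R-spondin list to 0.12 for the list of secreted inhibitors, which also holds *KREMEN1* and *KREMEN2*. Some genes stand in more than 1 list.

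Values of other gene groups stand here beside these genes. The proliferation score was 5.55 ± 0.30 in EtOH and 5.17 ± 0.25 in Tet (SD, n = 3 each; exact two-sided permutation test, p = 0.3, where 0.1 is the smallest possible), and the labels overlapped. Summed noradrenergic markers were at 622 to 682 CPM in EtOH and 688 to 837 CPM in Tet, with 8 of 10 tested, 0 past the threshold and none of the 10 at 0. Summed fibroblast markers were at 109 to 115 CPM in EtOH and 66.3 to 78.8 CPM in Tet, with 5 of 8 tested and 1, *PDGFRA*, past the threshold (log2 fold change -0.97, edgeR adjusted p = 0.0464). *PDGFRA* made up most of that sum (96.5 ± 2.15 and 49.3 ± 4.85 CPM), *COL3A1* had the opposite sign without overlap (8.82 ± 2.41 and 18.0 ± 2.10 CPM, log2 fold change 1.03, edgeR adjusted p = 0.143), and *COL1A2* was at 0. The part of these in the values of *TCF7L2*, *CCND1* and *FRZB* was not tested.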

How the data were processed

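Total RNA was sequenced from 6 cultures, 3 labelled EtOH and 3 labelled Tet, grouped by title. The authors deposited estimated counts per gene, not scaled for depth or length. Per the file headers, trimmed reads were aligned with STAR and unique alignments were counted over exons with featureCounts 1.6.4, a pair in several genes being divided evenly among them and the strand not being used. The submitters' processing notes name STAR 2.7.1a, featureCounts 1.5.1 and GRCh38, and the study's methods give stranded counting, so the headers were followed. Between 12.3% and 14.7% of genes per library were not whole, and counts were rounded. The 92 spike-in rows were at 0 and left out. Of 53026 identifiers in the same version in GENCODE v44, 53025 had the same position.

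Genes were filtered with filterByExpr, scaled by TMM and tested across all genes with edgeR 4.0.16 (quasi-likelihood F test, R 4.3.3, two-sided, Benjamini-Hochberg over 22443 genes, threshold 0.05), without a replicate block. The SE was the log2 fold change divided by the square root of F, and the 95% interval used the t quantile of its degrees of freedom. TPM came from unrounded counts and exon length. Alternatives used RLE and upper quartile scaling, other filters, unrounded counts, DESeq2 1.42.0, limma-voom (limma 3.58.1), a block, and each library left out. The edgeR step was tested on simulated counts. Same-label libraries differed beyond sampling noise (chi-square per degree of freedom 10.3 to 128), and the labels do not say that cultures were independent, so p-values measure the spread between these libraries. The floor of 3 counts covers counting error only. Named genes were the 10 members, *MYCN*, and, of the other list genes, the 12 tested with the lowest unadjusted p and the 5 with the highest TPM. Members and lists were chosen with earlier results of these data known.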

Additional observations from a re-analysis of the deposited data

How the results depend on the processing

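None of the 10 WNT genes passed the threshold under any of the 14 alternatives. The unfiltered fit tested all 10. DESeq2 also held all 10, but its own filter on low counts can leave a gene without an adjusted p. Of 112 comparisons of the 8 tested genes with an alternative, 106 kept their direction and 6 reversed, all in fits that left out 1 library. Over those fits, log2 fold changes ranged from -0.053 to 0.27 for *AXIN2*, from -0.21 to 0.16 for *TCF7*, from -0.10 to 0.061 for *TCF7L1*, from -0.080 to 0.24 for *DKK1* and from -0.22 to 0.21 for *MYCN*. They ranged from -0.88 to -0.033 for *LGR5* and from -0.68 to -0.046 for *ZNRF3*, in both nearest to 0 without EtOH replicate 2. *TCF7* was also at 0.0082 without Tet replicate 3, *TCF7L1* at 0.038 without Tet replicate 2, and *MYCN* at 0.066 without Tet replicate 3.

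Of all WNT list genes, 2 were called with no filter and 2 under DESeq2 (*CCND1* and *FRZB* in both), and from 0 to 3 with 1 library left out, the 3 being *CCND1*, *FRZB* and *SNAI2* without EtOH replicate 2. Of all genes, 53 were called in the reported fit, 302 with no filter, 499 under DESeq2, and from 0 to 692 with 1 library left out, the highest without EtOH replicate 2. The cause was not tested.

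Deviations of same-numbered libraries from their label means had correlations of 0.0603, 0.510 and 0.219. A shared number is not stated to be a pairing, and the reported fit carried no replicate block. The highest correlation, 0.510, was that of replicate 2. Differently numbered libraries were not compared in this way, so the values cannot show that spread goes with the number. Any spread that does was left in the reported p-values. A fit with a replicate block called 675 genes, among them 3 of the WNT lists (*CCND1*, *FRZB* and *SNAI2*) and 0 of the 10 genes, of which *ZNRF3* had the lowest adjusted p (0.212). The proliferation score kept its direction, at -0.52 to -0.21 with 1 library left out. Low counts limit *LEF1*, *RNF43* and *DKK1*.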
